A study of Mus musculus with 12 samples.

Results

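The cytosolic ribosomal protein genes of the mouse were examined in chromatin from ventricles at postnatal day 15. They were taken by symbol as every gene whose name begins with Rpl or Rps followed by a digit, without the Rps6k kinases and without names that contain -ps. The rule gave 85 genes, of which 84 are protein coding in RefSeq and 1, Rps4l, is a transcribed pseudogene there. Of the 84, 73 encode structural proteins of the ribosome, 43 of the large (60S) and 30 of the small (40S) subunit, and the other 11 are paralogs or genes that only carry such a name. A peak of either factor was assigned to 68 of the 85 genes, among 14804 genes named in the lists. The study asked where Meis1 and Hoxb13 bind in the mouse heart, and its 12 libraries formed 4 groups of 3: Meis1 precipitates, their inputs, Hoxb13 precipitates and their inputs. All came from CD-1 mice of the same age, no mutant, transgene or treatment is named for any group, and the ventricles were whole tissue, so a peak cannot be placed in 1 cell type. The deposited data are 1 peak list per factor over its 3 replicates, with 30534 peaks for Meis1 and 22284 for Hoxb13, and no value per library. Read depth is therefore unknown, and no SD or test between replicates could be given. Counts of genes are set beside the same count over 21887 protein-coding genes, or over those with a RefSeq promoter window.

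Each cytosolic ribosome is built from ribosomal RNA and a full set of these proteins, made in equal amounts from genes scattered over the chromosomes. Most of the genes are short and are transcribed in every cell type, many host small nucleolar RNAs in their introns, and most start in a run of pyrimidines, the terminal oligopyrimidine tract, through which growth signals control translation of the mRNA. Their promoters are known for sites of ETS family factors such as GABP and for YY1 sites. Meis1 is a homeodomain protein of the TALE class that binds TGACAG, often beside a Hox protein, and Hoxb13 is a Hox protein of the posterior group. Both are known for their part in the exit of cardiomyocytes from the cell cycle after birth.

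Promoter sequences are shown first, because the peaks at these genes are placed against them. They come from the RefSeq promoter table of GRCm38.p6, the build called mm10, in which 65 of the 84 genes had a window from 250 bases before to 50 bases after the start. Each run below covers the 60 bases before and the 30 bases from the start, read 5′ to 3′ on the gene's own strand. Capitals mark the ETS core CCGGAAG on either strand and a terminal oligopyrimidine tract. Genes with the strongest Hoxb13 promoter peaks were not all marked: Rpl13, Rpl27 and Rps15 had neither mark in these bases. The 5 sequences that follow are from other genes with some of the strongest peaks, and each carries a mark. They are, in order, chr12:28635924-28636013, chr3:86142639-86142728, chr4:136053364-136053453, chr4:86857338-86857427 and chr14:18270957-18271046, all on the minus strand.
Rps7: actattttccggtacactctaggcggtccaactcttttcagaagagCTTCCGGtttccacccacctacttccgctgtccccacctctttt
Rps3a1: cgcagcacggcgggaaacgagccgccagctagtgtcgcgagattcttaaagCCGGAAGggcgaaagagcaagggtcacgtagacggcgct
Rpl11: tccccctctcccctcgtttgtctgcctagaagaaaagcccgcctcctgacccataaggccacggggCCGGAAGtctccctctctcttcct
Rps6: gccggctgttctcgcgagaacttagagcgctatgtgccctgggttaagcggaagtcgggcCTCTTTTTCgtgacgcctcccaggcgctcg
Rpl15: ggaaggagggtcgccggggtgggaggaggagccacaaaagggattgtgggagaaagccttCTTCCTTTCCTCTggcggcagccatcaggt

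For comparison, 3 structural genes to which neither list assigned a peak are shown with the same marks. They lie on the plus strand at chr9:120571457-120571546, chr2:180257319-180257408 and chr9:64173327-64173416. Rpl14 and Rps21 have the tract and Rps21 also the ETS core, so these letters occur in promoters with and without a listed peak. Rpl4 has neither mark. Rpl10, Rps12, Rps16 and Rps25, also without an assigned peak and not shown, have neither mark in the same bases.
Rpl14: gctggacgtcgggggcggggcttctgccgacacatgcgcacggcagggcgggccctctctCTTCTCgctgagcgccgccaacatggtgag
Rps21: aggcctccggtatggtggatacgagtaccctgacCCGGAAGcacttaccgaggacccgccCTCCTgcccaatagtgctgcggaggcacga
Rpl4: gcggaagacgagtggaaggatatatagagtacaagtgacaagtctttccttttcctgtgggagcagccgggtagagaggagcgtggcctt

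Hoxb13 peaks were assigned to 65 of the 84 protein-coding ribosomal protein genes (77.4%), against 44.4% of all protein-coding genes. A Hoxb13 peak of the promoter class, within 1000 bp of a start in the deposited annotation, was assigned to 60 of the 84 (71.4%), against 30.7% of all. Meis1 gave the other picture, with any peak at 16 of the 84 (19.0%) against 38.2% of all. A Meis1 promoter peak was assigned to 4 of them (4.76%) against 8.16% of all. Both factors had a peak at 14 members (16.7%), against 23.9% of all genes. Ribosomal protein genes thus stood above the background for Hoxb13 and below it for Meis1 in each of these counts, and no test bears on either difference.

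Among the structural genes, 56 of 73 had a Hoxb13 promoter peak (76.7%). The share was 86.0% for the 60S subunit (37 of 43) and 63.3% for the 40S subunit (19 of 30). Of the 11 paralogs and other names, 4 had one (36.4%), a share close to the background. Other gene families for comparison had lower shares than the structural genes. Mitochondrial ribosomal protein genes (Mrpl and Mrps) had a Hoxb13 promoter peak at 34 of 78 (43.6%), initiation and elongation factor genes (Eif and Eef) at 35 of 71 (49.3%), and proteasome subunit genes at 16 of 40. A list of 50 genes for ribosome assembly and ribosomal RNA synthesis, such as Npm1, Ncl and Ubtf, had 18, about the share of the paralogs. The 7 structural ribosome genes that the symbol rule leaves out, among them Rplp0, Rpsa and Rack1, had 5 (71.4%). For Meis1 promoter peaks the same families ranged from 0 of 7 in that last list to 9 of 78 (11.5%) among the mitochondrial ribosomal protein genes. All 8 genes of a cardiomyocyte list (Myh6, Tnnt2, Tnni3, Actc1, Myl2, Myl3, Ryr2 and Pln) had a Hoxb13 promoter peak, 3 (37.5%) had a Meis1 promoter peak and 7 had a Meis1 peak at any distance, which describes peaks and not expression.

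**Figure D1:**
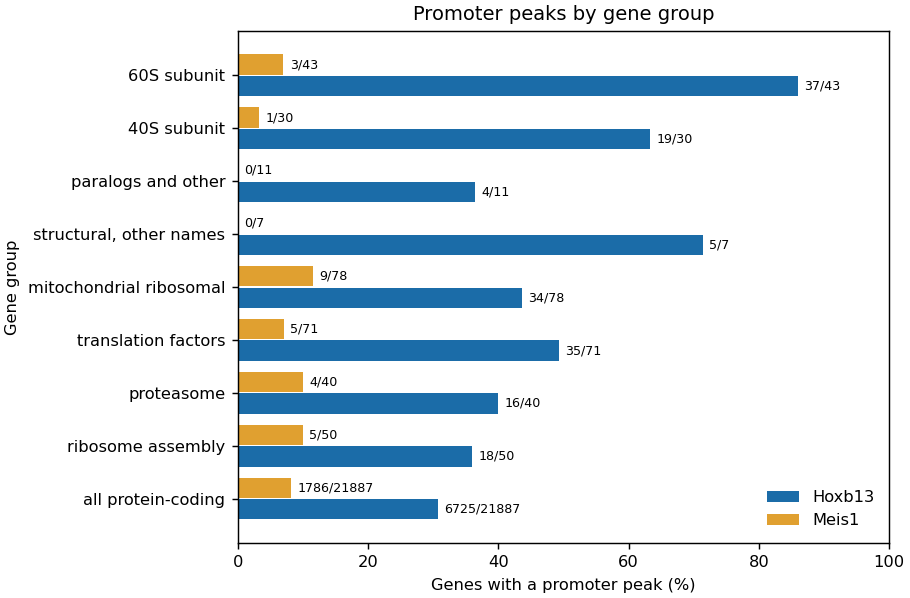
Share of genes in each group with a promoter peak, in percent on the horizontal axis, for Hoxb13 (blue) and Meis1 (orange), with gene counts beside the bars. The 60S and 40S bars for Hoxb13 reach 86.0% and 63.3%, against 30.7% of all protein-coding genes, while every Meis1 bar drawn is at or under 11.5%; the cardiomyocyte list is not drawn.

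The Hoxb13 peaks at these promoters were among the strongest of the list. Peak strength is the authors' deposited value per peak, it ranged from 17.8 to 697 with a median of 21.4 over all Hoxb13 peaks, and it was ranked only within that list. The strongest promoter peak of each member had a median strength of 61.0, against 26.3 for the other 6665 protein-coding genes with such a peak. A promoter peak among the strongest 1% of the list (222 peaks) was found at 20 of the 84 members (23.8%), against 0.484% of all protein-coding genes. Of the 200 strongest Hoxb13 peaks 17 belonged to members, and of the 500 strongest 31, although members had 0.422% of the list. The top 1% held 2 genes of the Eif and Eef families, 1 of the 7 other structural genes, and none of the mitochondrial ribosomal, proteasome or assembly genes.

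Rps7, a 40S protein, had the strongest Hoxb13 peak of the group, with a strength of 285 (rank 20 of the list). The 60S protein gene Rpl13 followed at 251 (rank 30). Rpl27 (60S) had 190 and Rps3a1 (40S) had 189, ranks 50 and 51. Rpl11, whose protein joins Rpl5 and 5S ribosomal RNA in a particle that can bind Mdm2, had 153. Rps6, the 40S protein phosphorylated by S6 kinase, had 138. Rpl8 had 136, Rpl15 had 132 and Rpl17 had 129, all of them 60S genes. Rps15 (122), Rpl32 (122) and Rps14 (118), whose human counterpart is lost in the 5q deletion syndrome, completed the 12 strongest. Both subunits were thus represented near the top, with 12 genes of the 60S and 8 of the 40S in the strongest 1%.

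The weakest promoter peaks were also at structural genes. Rpl23a had 18.5, Rps27 18.7, Rps26 18.9 and Rpl3 19.1. Rpl3 is a 60S protein that reaches toward the peptidyl transferase centre, and its muscle-restricted paralog Rpl3l had a stronger promoter peak, at 29.4. Among the other paralogs, Rps27l had 28.3, Rpl7l1 26.3 and Rpl22l1 20.2, so no paralog entered the strongest 1%. The testis paralog Rpl39l had no peak of either factor, and Rpl10l had none in its promoter.

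**Figure D2:**
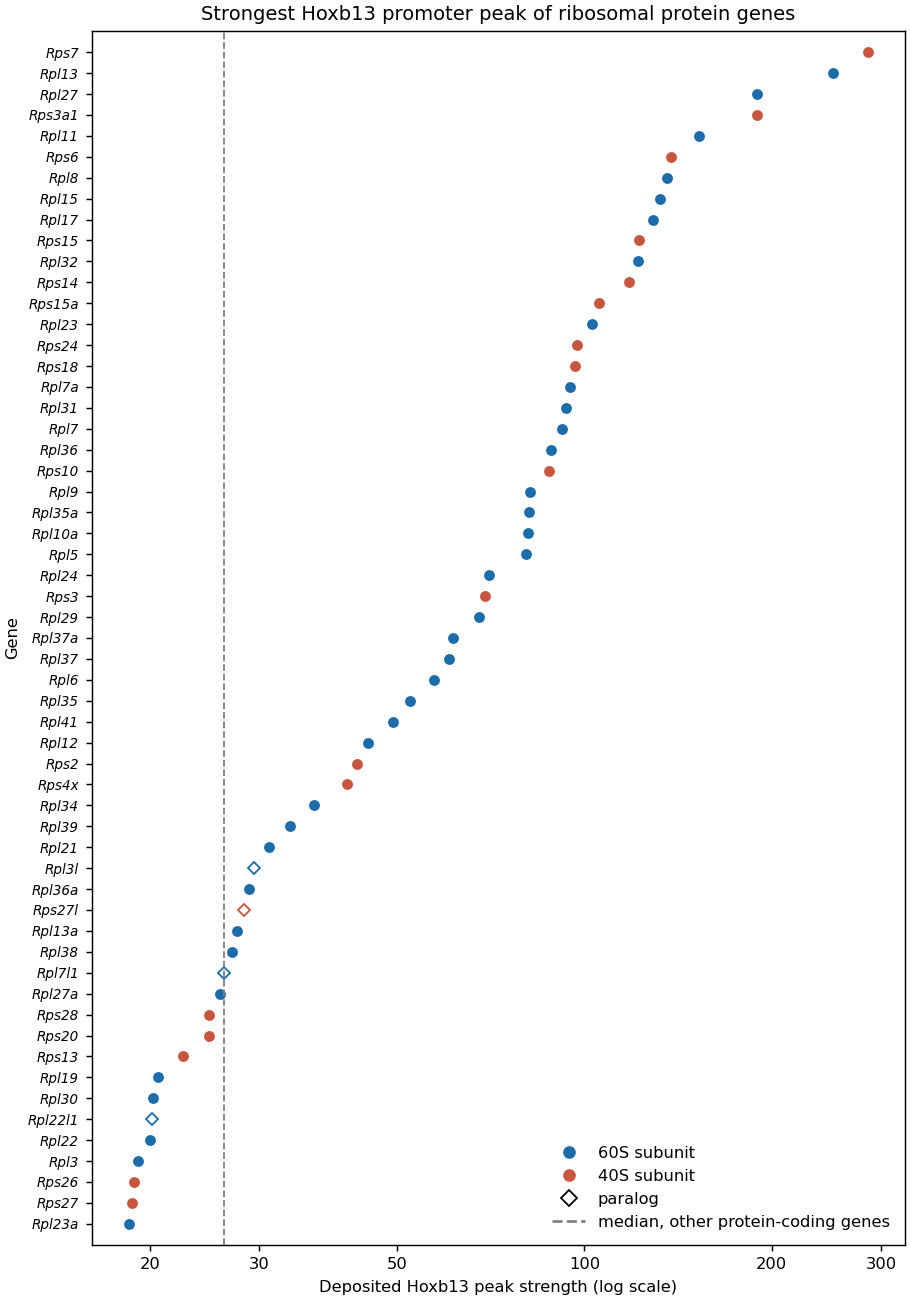
Deposited strength of the strongest Hoxb13 promoter peak of members that have one, on a log axis, with 60S genes in blue, 40S genes in red and paralogs as open diamonds. The dashed line is the median of the other protein-coding genes, 26.3; points run from 18.5 at Rpl23a to 285 at Rps7, and both subunits are spread over the whole range.

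The position of the peaks was alike in most members, though not in all. Measured to the summit in the direction of transcription, the strongest promoter peak of the 60 members lay at a median of 152 bp downstream of the annotated start, with quartiles at 126 and 192 bp. The summit was downstream of the start in 54 of the 60, and between 50 and 250 bp downstream in 47 (78.3%). The other 6665 genes had a median of 99 bp downstream, with quartiles at 104 bp upstream and 233 bp downstream, and 35.6% of them fell in that window. Other genes with strong peaks had another position. The 237 whose strongest promoter peak reached the members' median strength had a median summit 51 bp upstream of the start, with 23.2% in the window. Of the 30 members that strong, 28 (93.3%) were in it. The 60S and 40S genes had medians of 152 and 149 bp.

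In single genes, the summit lay 213 bp downstream of the start in Rps7, 212 bp in Rps3a1, 192 bp in Rpl13, 177 bp in Rps6, 138 bp in Rpl11 and 126 bp in Rpl15. These distances place the summits past the first bases of the transcript, and past the sequences printed above. Among the strongest 12, Rpl27 had the farthest summit, at 289 bp. The genes whose summit was upstream included Rpl30 (331 bp), Rpl21 (76 bp), Rpl41 (40 bp) and Rps26 (40 bp). The Rpl41 summit lay 155 bp downstream when measured from the RefSeq start, and among 45 members with a RefSeq start it was the sole one to change side. Rps28 (1011 bp) and Rpl22 (460 bp) lay farthest downstream, and Rps28 had a weaker peak 40 bp from its start. Of these genes, Rpl41 had a peak of 49.3 and each of the others one of 31.1 or less.

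**Figure D3:**
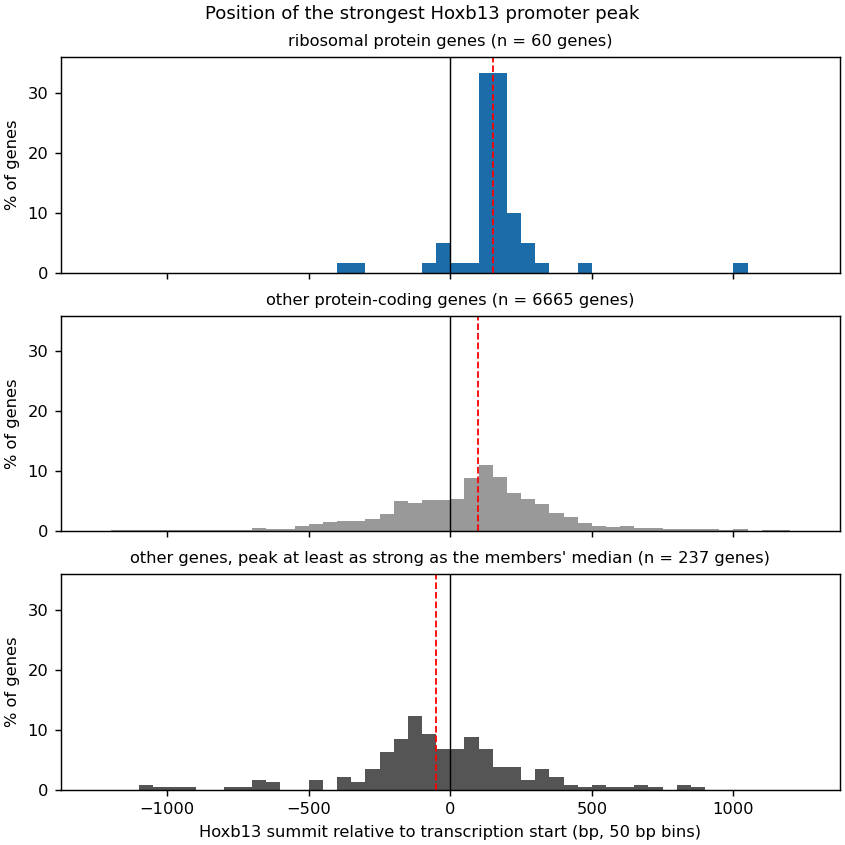
Distance from the transcription start to the summit of the strongest Hoxb13 promoter peak of each gene, in 50 bp bins, as percent of genes; negative values are upstream, and dashed lines mark medians. The 60 ribosomal protein genes (blue) cluster around a median of 152 bp downstream. The other genes (grey, 6665) spread to both sides of the start with a median of 99 bp. The 237 other genes (dark) with peaks at or above the ribosomal protein genes' median strength have their median 51 bp upstream.

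The strong peaks were also narrower than most. In the Hoxb13 list 98.8% of peaks had a fixed width of 396 bp, but the strongest promoter peak was narrower in 17 of the 60 members (28.3%) and in 1.5% of the other genes. Narrow peaks went with strength in other genes as well. At or above the members' median strength, they made up 40.1% of the other genes and 56.7% of the 30 members. These sets were not matched for strength, with medians of 78.3 and 96.8. The peak of Rps7 covered 241 bp, chr12:28635643-28635883, and that of Rpl11 196 bp, chr4:136053151-136053346. Both lay wholly downstream of the start. In 12 of the 45 members with a promoter peak and a RefSeq window, no base of the peak fell inside the window that ends 50 bases after the start, and the median was 54 bases. The sequence under most of these summits was therefore not analysed here.

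At some members the start itself lay outside the peak. Only 45 of the 65 members with a window had a promoter peak of their own, so the counts below also depend on having a peak. The RefSeq start lay inside a Hoxb13 peak, whatever gene that peak was assigned to, in 26 of the 65 members with a window, against 19.2% of all 17492 genes of the table. A summit within 200 bp of the start was found for 39 of the 65, against 19.5%. Within 500 bp, a distance chosen after seeing the data, there were 48 (73.8%), against 31.3%.

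Further Hoxb13 peaks, near the gene or far from it, were assigned to some members. Hoxb13 peaks numbered 3 or more at 5 of the 84 members (5.95%), against 9.58% of all protein-coding genes, and Rpl29, Rpl36, Rps24 and Rps28 were among them. Rpl36 had peaks of 88.4 and 25.7 in its promoter, 142 and 348 bp downstream of the start, and another of 23.3 in exon 14 of the neighbouring Lonp1, 535 bp past its own end. Rps24 had 97.2 and 35.0 in its promoter and a distant peak of 33.4, 289 kb downstream. Rpl29 had its promoter peak and 3 upstream peaks of 44.5, 18.2 and 19.8, at 10.9, 18.2 and 23.1 kb. Rps28 had 4 peaks, 2 of them within 1011 bp of the start at 24.9 and 20.9, and 2 past the gene at 21.1 and 37.7, the former in exon 9 of Kank3. In each of these genes except Rps28 the strongest peak was a promoter peak.

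Peaks just past the 3′ end of the gene formed a second recurrent position. A Hoxb13 summit up to 3000 bp past the transcript end was assigned to 12 of the 84 members (14.3%), against 3.12% of all protein-coding genes. Other lists had it too, with 6 of 8 cardiomyocyte genes and 1 of the 7 other structural genes. Lower shares were seen in mitochondrial ribosomal protein genes (4 of 78), Eif and Eef genes (3 of 71) and proteasome genes (2 of 40). Of the assembly list, 0 of 50 had it. The 12 were 6 genes of each subunit, among them Rpl5, Rpl8, Rpl9, Rpl15 and Rpl28 and Rps9, Rps10, Rps15a and Rps19. All 12 peaks were weak, from 18.4 at Rpl9 to 25.1 at Rps15a, where the summit lay 220 bp past the end. Those of Rpl5 (20.9) and Rpl15 (19.3) lay 236 and 328 bp past it. Rps14 had a peak of 21.6 within its last exon, exon 5 of 5. Ribosomal protein genes are short, with a median of 3164 bp for the structural genes against 17169 bp for all protein-coding genes, and the part of length in this count was not tested. For Rpl28, Rps9 and Rps19 this was the sole Hoxb13 peak.

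**Figure D4:**
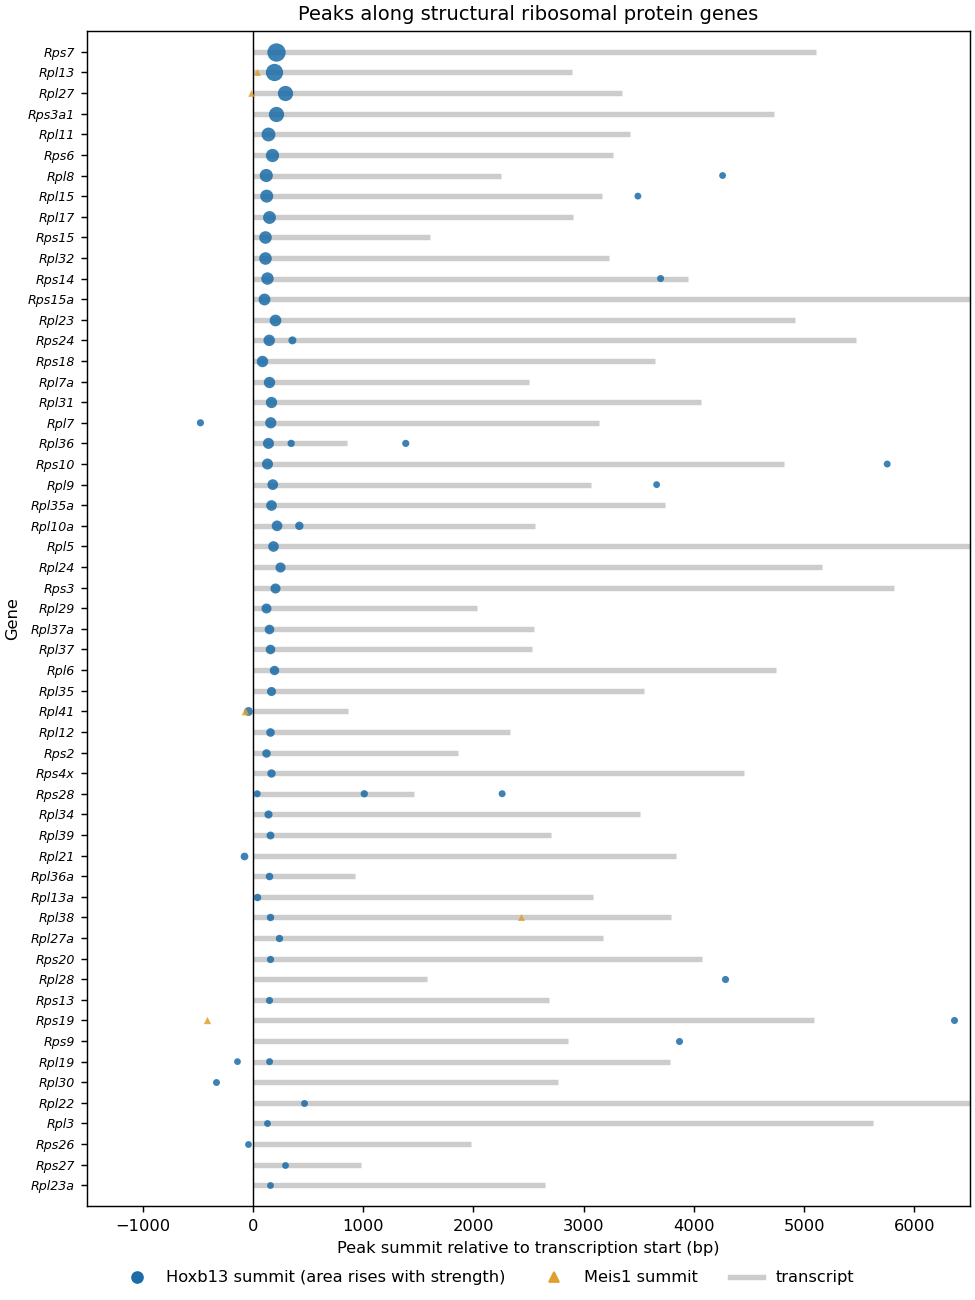
Peak summits along structural ribosomal protein genes that have a peak from 1500 bp before to 6500 bp after the start, as distance from the start in bp on the horizontal axis, genes ordered by their strongest Hoxb13 peak anywhere. Blue circles (Hoxb13, area rising with strength) form a column just right of the start in most genes and smaller ones appear past some gene ends; orange triangles (Meis1) are few, and grey bars are transcripts, clipped at the right edge where longer.

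The lists assigned no Hoxb13 peak to 13 structural genes. These included Rpl4, Rpl10, Rpl14, Rpl18 and Rpl26 of the 60S subunit and Rps12, Rps16, Rps21, Rps23, Rps25 and Rps27a of the 40S subunit. Rps29 had only peaks 415 and 509 kb away. For 4 of the 13 and for the paralog Rpl36al, however, a peak over the gene itself had been assigned to another gene, since each peak is given to 1 gene only. At Rpl18 a peak of 106 (rank 155) was assigned to Sphk2, and at Rpl26 one of 91.9 (rank 208) to Gm15772. Both summits lay 137 bp downstream of the RefSeq start, close to the position in the other members. At Rps27a, which encodes a fusion of ubiquitin and a 40S protein, 3 peaks of 31.4, 19.1 and 19.8 were assigned to Clhc1. At Rpl36al a peak of 24.5 lay 41 bp upstream of the start and was assigned to Mgat2. Rps27a had no RefSeq window, so the distance of these peaks from its start was not measured. Counting such peaks, a choice made after seeing the data, raised the members with a Hoxb13 promoter peak from 60 to 65. No such count over all protein-coding genes stands beside the 65. Such cases occur there too: in 254 of 17492 genes, summits within 200 bp of the start all belonged to peaks assigned elsewhere. Among members with a window this held for 3 of 65.

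Peaks given to neighbours were also seen elsewhere in or near members. Past the end of Rpl10 there were peaks of 43.4 and 22.8 assigned to Mir7091 and past Rpl4 peaks of 20.1 and 17.8 assigned to Snapc5. At Rpl41, which encodes a very short 60S peptide, a peak of 93.9 at the end of the gene was assigned to Zc3h10 and exceeded its own promoter peak of 49.3. No Hoxb13 peak within 500 bp of the gene model was seen for Rpl14, Rps12, Rps16, Rps21, Rps23 or Rps25. Small nucleolar RNA genes lay inside 28 of the 73 structural genes (38.4%), against 1.73% of all protein-coding genes. They lay in 23 of the 56 structural genes with an assigned Hoxb13 promoter peak (41.1%) and in 5 of the 17 without one (29.4%). The 17 include genes with a peak over them that was assigned to another gene. A small nucleolar RNA gene inside a member can take that member's peak, so these shares depend on the assignment.

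Meis1 promoter peaks were found at Rpl13, Rpl27, Rpl41 and Rps19. Rpl41 had the strongest, 30.4 (rank 5260 of 30534), with its summit 68 bp upstream of the start. Rps19, the 40S protein most often mutated in Diamond-Blackfan anaemia, had 25.4 with the summit 413 bp upstream. Rpl13 had 18.6 with the summit 40 bp downstream, and Rpl27 had 16.1, 16 bp upstream. Over the whole Meis1 list strength ran from 15.6 to 552 with a median of 18.7, so 2 of the 4 were in the weaker part of it. Rpl13 and Rpl27 were 2 of the 3 genes with the strongest Hoxb13 promoter peaks, while their Meis1 peaks ranked 15445 and 26735 in the Meis1 list. Meis1 peaks near 2 more members were assigned to neighbours: one of 63.0 (rank 1755), 373 bp upstream of Rps18, to Vps52, and one of 18.7, 196 bp upstream of Rpl15, to Nkiras1.

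The sequences under 3 of these peaks are shown from 100 bases before to 30 bases from the start, all within the Meis1 peak. Capitals mark the cyclic AMP response element TGACGTCA and the ETS core CCGGAAG. They are chr8:123102250-123102379 and chr11:101442145-101442274 on the plus strand, and chr10:128549139-128549268 on the minus strand. TGACAG, the Meis core, was on neither strand in the part of these peaks, or of the Rps19 peak, inside the RefSeq window. This says nothing on the bases outside it. Of 284 bases in each peak, the window held 152 at Rpl13, 208 at Rpl27 and 259 at Rpl41. It held only 22 at Rps19, whose summit lay outside the window.
Rpl13: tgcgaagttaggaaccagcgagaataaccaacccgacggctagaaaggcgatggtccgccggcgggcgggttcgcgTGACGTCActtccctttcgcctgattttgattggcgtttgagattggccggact
Rpl27: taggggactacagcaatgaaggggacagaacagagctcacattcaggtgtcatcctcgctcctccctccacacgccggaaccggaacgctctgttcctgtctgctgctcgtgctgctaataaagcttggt
Rpl41: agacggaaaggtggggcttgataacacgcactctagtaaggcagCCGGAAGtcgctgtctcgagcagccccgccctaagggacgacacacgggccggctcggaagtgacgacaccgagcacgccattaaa

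Regions shared by both factors, meaning peaks that overlap by at least 1 bp, were found at 3 members (3.57%), against 6.11% of all protein-coding genes. At the Rpl13 promoter the Hoxb13 peak (251) and the Meis1 peak (18.6) overlapped by 119 bp, with summits 152 bp apart. At the Rpl41 promoter the peaks (49.3 and 30.4) overlapped by 117 bp, with summits 223 bp apart, the 2 lists naming different transcripts of this gene. The pair at Rps24 lay 289 kb downstream of the gene and overlapped by 219 bp with summits 121 bp apart. At Rpl27 the peaks did not overlap: Meis1 lay over the start and Hoxb13 further into the gene.

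The other Meis1 peaks assigned to members were mostly far from them. The median distance of the 45 Meis1 peaks of protein-coding members was 116 kb, and 24 (53.3%) lay more than 100 kb away, against a median of 49.5 kb and 35.7% for other protein-coding genes. For Hoxb13 the order was the other way, with a median distance of 63.5 bp for the 94 member peaks and 3345 bp for other genes. The Meis1 gap rested on a single paralog with 19 of the 45 peaks. Without it, a choice made after seeing the data, the other 26 had a median of 65.4 kb and 10 (38.5%) lay more than 100 kb away. This gene, Rpl10l, an intronless testis gene that stands in for the X-linked Rpl10 in meiosis, had its peaks 8.18 to 495 kb away, 4 of them within Mdga2. Their strengths were 15.8 to 20.6. Rps29 had 4 peaks 309 to 574 kb away and Rps24 had 4, from 116 to 305 kb.

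One distant Meis1 peak was strong. It lay 24.1 kb upstream of Rpl29 (185.8, rank 243), and a second of 32.3 lay 22.6 kb upstream. The Hoxb13 peaks upstream of Rpl29 did not overlap either of them. The remaining Meis1 peaks had strengths of 27.2 or less and lay mostly in introns of neighbours. Rpl31 had peaks in introns 2 and 3 of Npas2 and intron 5 of Tbc1d8, Rps23 in 2 introns of Atg10, Rpl30 in intron 10 of Matn2, and Rpl5 in intron 2 of Dipk1a. The 3 peaks of the pseudogene Rps4l lay in introns of Tmtc1, as did its Hoxb13 peak, and Rps15a had 2 intergenic peaks 58.7 and 180 kb away. Rpl38, known for a part in translating Hox mRNAs in the embryo, had a Meis1 peak of 20.6 in its own intron 3, and Rpl37rt one of 16.3 in its own intron. Outside the 4 promoters, these were the sole Meis1 peaks of the group within the annotated gene.

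The promoter windows were searched for 14 sequence features. The ETS core CCGGAAG was present on either strand in 24 of the 65 member windows (36.9%), against 12.9% of the 17492 windows of all protein-coding genes. It was found in 19 of 41 structural genes with an assigned Hoxb13 promoter peak (46.3%) and in 3 of 13 without one (23.1%). The 13 include Rpl18 and Rpl26, whose promoter peaks were assigned to neighbours, and Rpl26 is among the 3. A terminal oligopyrimidine tract, a C within 5 bp of the start followed on the sense strand by at least 4 further pyrimidines, was present in 30 members (46.2%), against 21.5%. Its share hardly differed between structural genes with (20 of 41, 48.8%) and without (6 of 13, 46.2%) an assigned Hoxb13 promoter peak, and Rpl18 is among the 6. The YY1 core AAGATGG was found in 10 members (15.4%), against 7.18%, and the cyclic AMP response element TGACGTCA in 5 (7.69%), against 2.54%.

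Motifs of the precipitated factors were found in few of these windows. The Meis core TGACAG was present in 8 members (12.3%), against 21.2% of all windows and 36.9% of the 1476 genes with a Meis1 promoter peak. The 8 were Rpl10, Rpl22, Rpl34, Rpl38, Rpl3l, Rpl7a, Rps25 and Rps6, none with a Meis1 promoter peak. Only 4 members had such a peak, so little overlap could occur. Among all genes with the core in a window, 544 of 3709 had one. Its longer form TGACAGNT, which contains it, was present in Rpl10 and Rps6 (3.08%), against 5.06%. The Hoxb13 form CCAATAAA was present in 1 member, Rpl37rt (1.54%), against 1.1%, and the form CTCGTAAA in none, against 0.137%. The Hox core TTTATNG, which overlaps CCAATAAA on the opposite strand, was present in 5 (7.69%), against 11.2%. The summits of most Hoxb13 peaks lay past these windows, so these counts say nothing about the letters under them. Of the general promoter elements, GGGCGG was present in 58.5% against 49.2%. It had a lower share among structural genes with a Hoxb13 promoter peak (25 of 41) than among all genes with one (73.7%), where the ETS core was at 19.5% and the oligopyrimidine tract at 24.1%. CCAAT, part of CCAATAAA, was present in 29.2% against 42.3%, TATAAA in 10.8% against 14.8%, the E-box CACGTG in 9.23% against 8.91% and the NRF1 site in 7.69% against 7.17%.

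**Figure D5:**
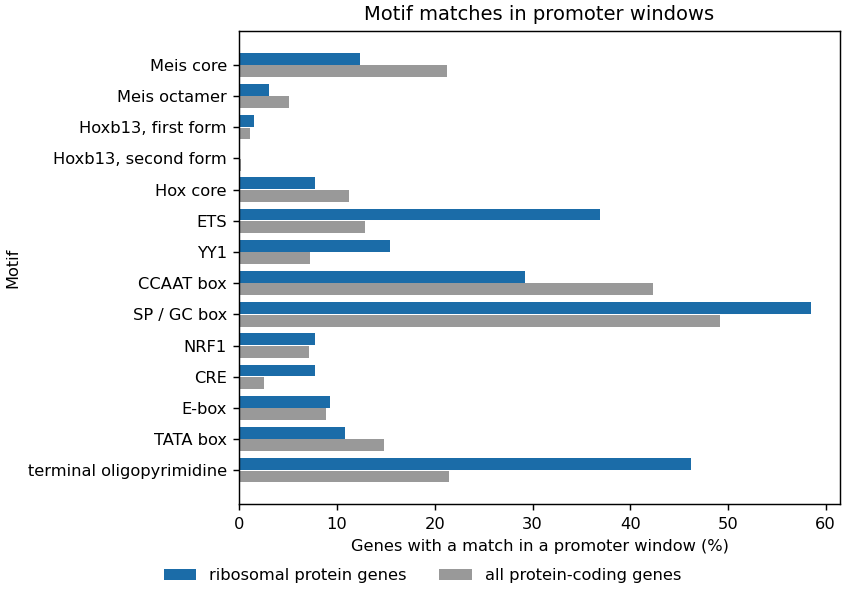
Percent of promoter windows (250 bases before to 50 after the start) with a match to each of 14 features, for the 65 ribosomal protein genes in the promoter table (blue) and all 17492 protein-coding genes in it (grey). The ETS core (36.9% against 12.9%) and the terminal oligopyrimidine tract (46.2% against 21.5%) have the widest gaps in favour of ribosomal protein genes, and the Meis core (12.3% against 21.2%) and CCAAT lie on the other side.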

How the data were processed

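Chromatin of ventricles from 3 P15 CD-1 hearts was precipitated with an antibody to Meis1 or Hoxb13, with 1% kept as input, per the labels' protocols. The submitters' processing notes name mm10 as the build and, as tools, Bowtie2 2.2.3, Picard, ChIPseeker and deepTools 1.6. For the peak caller, the threshold and the pooling of libraries, no source used here gives a description. The deposited lists give each peak 1 signal value (called strength, normalization not stated), a summit, a class and a nearest gene; a further deposited score column was not used. Depth per library is unknown, and the inputs entered no comparison.

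Genes were matched by Entrez number to RefSeq (GRCm38.p6), where 68 of 68 members with a peak were found; 1 gene to which the lists give another symbol was left out. The background was all protein-coding genes of that table outside the mitochondrial genome. Summit distances used the transcript each list names. The members and lists were chosen with earlier results of these data known, and no test was made. Named genes were those with a Meis1 peak, a shared region, the 12 strongest or 5 weakest Hoxb13 promoter peaks, 3 or more Hoxb13 peaks, no Hoxb13 peak (structural), a peak assigned to a neighbour, tissue-restricted paralogs, and those with the sequence features described; others were named after their values were seen. A few genes are counted in the totals and not reported here by name or in the plots of single genes. Counting was checked on simulated data. Python 3.11.15, pandas 2.3.3 and numpy 2.4.6 were used. Alternatives were the stronger 50% of each list, other distances and overlaps, structural genes only and shorter windows.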

Additional observations from a re-analysis of the deposited data

How the results depend on the processing

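No paired analysis was possible because the lists pool the 3 libraries of a factor, so neither pairing nor leaving out a library could be run. Of 38 alternative values, 26 stayed within the limits set for a change and 12 moved. With the stronger 50% of each list, members with a Meis1 peak went from 16 to 10 (all protein-coding genes, 28.0%) and those with a Meis1 promoter peak from 4 to 2 (all, 6.13%). Within 10000 bp of the start, 7 members had a Meis1 peak (all, 19.5%). Shared regions fell from 3 to 1 at a reciprocal overlap of 50% (all, 2.8%) and to 0 with summits within 100 bp (all, 2.23%). With a summit within 500 bp instead of a peak over the start, 26 members became 48, and with 1000 bp past the gene end, 12 became 7 (all, 1.69%); both were added after seeing the data. Members with a Hoxb13 promoter peak went from 60 to 51 with the stronger 50% of the list (all, 23.1%). Within 200 bp of the start they were 59 (all, 26.6%). Among structural genes only they were 56 of 73. With promoter peaks of other genes over the gene counted they were 65, with no share over all genes beside it. The median summit stayed between 152 and 156 bp. In the 150 bases nearest the start, the ETS core was found in 20 members instead of 24 and the oligopyrimidine tract in 30. The counts of both Meis motifs, the GC box and the E-box also moved there. The share over all windows is not given for this length, so these counts have no background beside them. Unknown depth limits what an absent peak can show.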
